A study of Mus musculus with 12 samples.

Results

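The neurotrophins are secreted growth factors of the nervous system, and 7 genes of their signalling route are described here: the ligands *Bdnf* and *Ntf3*, the receptors *Ntrk2*, *Ntrk3* and *Ngfr*, the sorting receptor *Sort1* and the transcription factor gene *Creb1*. They were chosen by gene symbol through the Ensembl identifiers of GENCODE M21 and are 7 of the 26409 genes in the table. No cut on their values was used, but earlier results of these data were known when they were chosen. Hippocampal RNA of mice was measured by stranded, poly-A selected RNA sequencing, with 3 libraries each of female WT, male WT, female *Dek* cKO and male *Dek* cKO animals. DEK is a chromatin-associated protein, and the *Dek* cKO mice of this study carry a constitutive deletion in all tissues. Exons 3 and 4 of the Dek fl/fl allele lie between loxP sites and were removed by CMV-Cre, a Cre driven in all tissues including the germline. The background was C57Bl/6. The transgene was later bred out, and the line was kept by mating heterozygotes. All animals were between 6 and 12 months old, and no drug treatment is named. The library names of female WT mice begin with C57 and those of the other 3 groups with CMV, so that this prefix and the group cannot be told apart for female WT. The question is whether transcripts of neurotrophin signalling differ between *Dek* cKO and WT hippocampus, and whether they do so in the same way in both sexes.

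Neurotrophins are made as precursors that are cut to mature ligands inside the cell or after release. Mature BDNF binds TrkB, the tyrosine kinase encoded by *Ntrk2*, and mature NT-3 binds chiefly TrkC, encoded by *Ntrk3*. The precursors bind instead a complex of the p75 receptor, encoded by *Ngfr*, with sortilin, encoded by *Sort1*, which also directs BDNF precursor to regulated release. Trk kinases signal through MAP kinases, PI3 kinase and phospholipase C to CREB, encoded by *Creb1*, which in turn binds a *Bdnf* promoter in active neurons. In the hippocampus this route is best known for its part in synaptic plasticity and memory.

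CREB recognises the cyclic AMP response element, whose full palindrome reads TGACGTCA and whose half-site reads TGACG, or CGTCA on the other strand. RefSeq start site windows of the GRCm38.p6 build (250 bases before and 50 after each start) were at hand for 5 of the 7 genes, namely 7 windows for *Bdnf*, 2 for *Ntf3* and 1 each for *Ntrk2*, *Ngfr* and *Creb1*. *Ntrk3* and *Sort1* were not matched. Only 1 of these 12 windows holds the half-site on either strand, and 0 of 12 hold the full palindrome, compared with 20.8% and 1.79% of 32851 windows of the whole table. Because *Creb1* and *Bdnf* are both among the 7 genes, the 250 bases before its start, the third of the 7 *Bdnf* starts along the gene, are shown 5′ to 3′ on the plus strand, at chr2:109692186-109692435, with the half-site in capitals.

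*Bdnf* window: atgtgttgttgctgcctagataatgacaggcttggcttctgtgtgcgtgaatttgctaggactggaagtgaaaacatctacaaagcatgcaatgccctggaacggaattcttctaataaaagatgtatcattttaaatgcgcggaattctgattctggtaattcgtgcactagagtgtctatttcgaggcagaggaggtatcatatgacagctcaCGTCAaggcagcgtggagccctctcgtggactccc

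The half-site begins 35 bases before the start. A match of letters is a description and does not show that a factor binds there. The expression table holds 1 value per gene, so transcripts from this start cannot be separated from those of the other *Bdnf* starts. GENCODE M21 lists 11 *Bdnf* transcripts. It also lists 10 for *Ntrk2*, of which 7 are coding, with coding lengths from 1398 to 2463 bases, and 20 for *Ntrk3*. TrkB and TrkC exist as full-length kinases and as truncated forms that lack the kinase, and these forms were likewise summed in the values below.

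Values are in TPM, which correct for the length of the transcript and for the size of the library. Levels in TPM can therefore be compared between genes, but the reads behind each value cannot be recovered from them. *Dek* itself was at 48.3 ± 2.58 TPM (SD, n = 6) in WT and at 7.23 ± 1.32 TPM (SD, n = 6) in *Dek* cKO libraries, and the groups did not overlap. In female cKO 3 and male cKO 1, 4 genes of the Y chromosome were at levels that go against the labelled sex. Both libraries were kept as labelled, and results were also computed without them. Male cKO 3 and female WT 1 stood apart from the other 10 libraries, with 574 and 587 genes over 4-fold away from the median of the remaining libraries, compared with 395 to 473 elsewhere. Nothing in the labels says more of how the animals were sampled, so that p-values measure the spread between these 12 libraries.

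The 7 genes covered a wide range of levels. *Sort1* had the highest mean, 194 TPM over the 12 libraries, which was rank 607 of the 18197 genes tested, those whose mean reached 0.1 TPM. *Ntrk2* followed with 137 TPM (rank 899), *Ntrk3* with 56.5 TPM (rank 2558), *Bdnf* with 18.2 TPM (rank 6761), *Creb1* with 15.5 TPM (rank 7395), *Ngfr* with 1.68 TPM (rank 13175) and *Ntf3* with 1.12 TPM (rank 13924). In this order each gene was higher than the next in all 12 libraries, except that *Bdnf* was higher than *Creb1* in 9 of 12. *Ngfr* and *Ntf3* were close, with *Ngfr* between 1.01 and 2.43 times *Ntf3*. For both ligands the receptor transcript was the more abundant. The ratio of *Ntrk2* to *Bdnf* ranged from 3.89 to 10.9, with a median of 7.56, and that of *Ntrk3* to *Ntf3* from 35.7 to 103, with a median of 51.4. The sortilin transcript exceeded its partner *Ngfr* by between 84.4 and 157 times. In adult brain p75 is known chiefly from basal forebrain neurons, whose cell bodies lie outside the hippocampus.

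**Figure D1:**
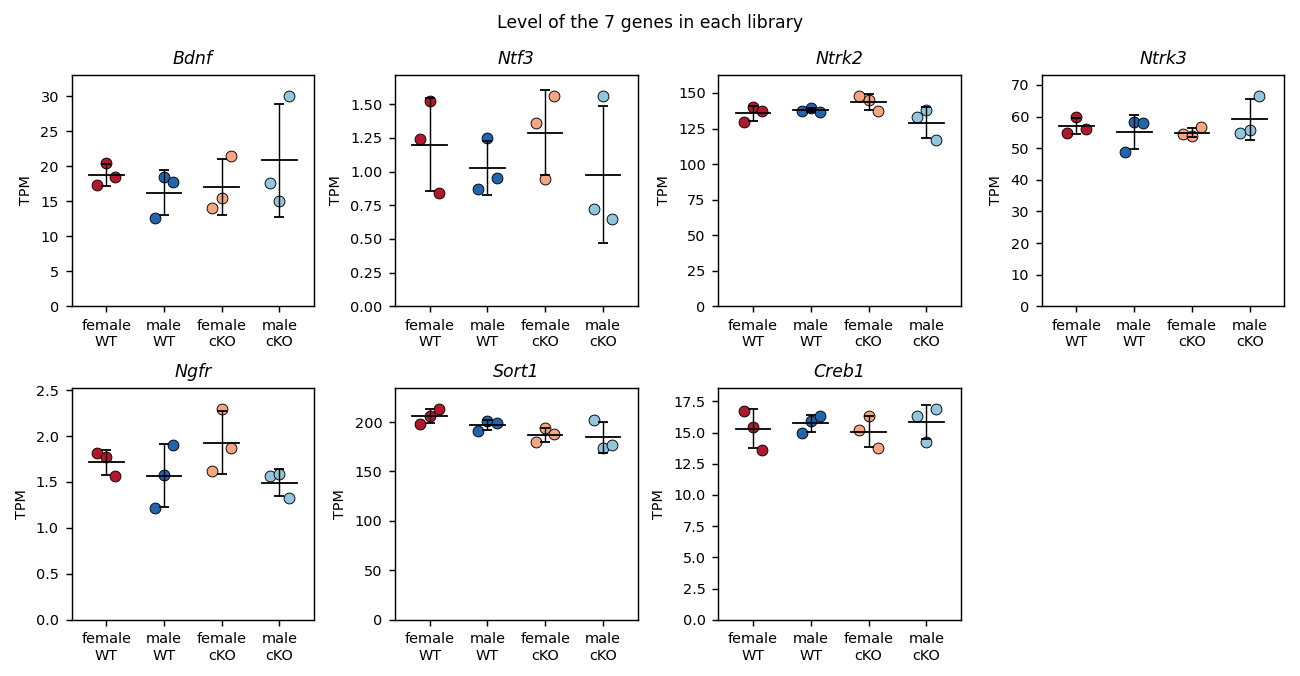
TPM of each of the 7 genes in the 12 libraries, 1 panel per gene with its own linear axis from 0; points are libraries, horizontal lines group means and bars ± 1 SD of 3 libraries. The *Dek* cKO points of every gene overlap the WT points, and male cKO 3 has the highest *Bdnf* (30.1 TPM) and *Ntrk3* (66.6 TPM).

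*Bdnf*, the ligand of TrkB, lies on chromosome 2 of GRCm38 from 109674700 to 109727007 on the plus strand. It was at 17.4, 20.4 and 18.5 TPM in female WT, at 12.6, 18.4 and 17.7 TPM in male WT, at 14.0, 15.4 and 21.5 TPM in female cKO and at 17.6, 14.99 and 30.1 TPM in male cKO libraries. The lowest value was that of male WT 1 and the highest that of male cKO 3, and the genotypes overlapped. Of the other 5 *Dek* cKO libraries 3 were below and 1 was above the other 5 WT libraries. The mean was 17.5 ± 2.64 TPM (SD, n = 6) in WT and 18.9 ± 6.08 TPM (SD, n = 6) in *Dek* cKO mice. The log2 fold change of *Dek* cKO over WT was 0.08 (SE 0.17, 95% interval -0.30 to 0.45), with an adjusted p of 0.979 by limma after the Benjamini-Hochberg method over all 18197 genes. The log2 fold change was -0.07 without male cKO 3 and -0.02 without male WT 1, so that its direction turned with either library. *Bdnf* was also the most variable member for its level. The SD of its log2 values over the 12 libraries, 0.32, was higher than that of 93.9% of the 2735 genes within 0.5 log2 units of its mean, whose median SD was 0.14. This SD includes male cKO 3, at 30.1 TPM, while the other libraries ranged from 12.6 to 21.5 TPM. It was not computed without male cKO 3.

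*Ntf3* encodes NT-3, the ligand of TrkC (chromosome 6, 126101412 to 126166910, minus strand). Its level was low, at 1.24, 1.52 and 0.837 TPM in female WT, 0.873, 1.25 and 0.952 TPM in male WT, 1.36, 0.946 and 1.56 TPM in female cKO and 0.722, 1.56 and 0.646 TPM in male cKO libraries. Both genotypes held values near the top and near the bottom of this range, and the spread among the 3 male cKO libraries was the widest of the 4 groups. The log2 fold change over both sexes was -0.02 (SE 0.25, 95% interval -0.55 to 0.51, adjusted p = 0.999 by limma). This interval still holds changes of 0.68-fold to 1.43-fold, so that at this level a moderate difference was not detectable.

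*Ntrk2* encodes TrkB and lies on the chromosome of *Dek* itself, chromosome 13 (58806569 to 59133970, plus strand), 11.7 Mb from the *Dek* gene. It was at 129.7, 140.1 and 137 TPM in female WT, 137, 139 and 137 TPM in male WT, 148, 145 and 138 TPM in female cKO and 133, 138 and 117 TPM in male cKO libraries. Among the 3 female cKO libraries 2 were above all WT values, and among the male cKO libraries male cKO 3 was below them all. The means of both genotypes were nearly equal, 137 ± 3.69 TPM (SD, n = 6) in WT and 136 ± 11.1 TPM (SD, n = 6) in *Dek* cKO mice. *Dek* cKO over WT gave a log2 fold change of -0.01 (SE 0.05, 95% interval -0.12 to 0.11, adjusted p = 0.995 by limma), an interval of 0.92-fold to 1.08-fold.

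*Ntrk3*, the gene of TrkC, lies on chromosome 7 (78175959 to 78738012, minus strand). Its values were 54.9, 60.0 and 56.2 TPM in female WT, 48.9, 58.4 and 58.1 TPM in male WT, 54.3, 53.7 and 56.6 TPM in female cKO and 54.7, 55.9 and 66.6 TPM in male cKO libraries. As for *Bdnf*, male WT 1 was the lowest of the 12 libraries and male cKO 3 the highest, and the remaining values of both genotypes overlapped. Its log2 fold change was 0.02 (SE 0.06, 95% interval -0.11 to 0.16, adjusted p = 0.983 by limma), and -0.02 without male cKO 3 and also without male WT 1.

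*Ngfr* encodes p75, which all neurotrophins and their precursors bind (chromosome 11, 95568818 to 95587735, minus strand). Its level ranged from 1.22 to 1.90 TPM in WT, with a median of 1.67 TPM, and from 1.32 to 2.30 TPM in *Dek* cKO libraries, with a median of 1.60 TPM. Only female cKO 2 was above all WT libraries. On the log2 scale the fold change was 0.05 (SE 0.16, 95% interval -0.29 to 0.39, adjusted p = 0.986 by limma). For a gene of this low level *Ngfr* varied little, since 9.85% of the 1299 genes of like level had a smaller SD.

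*Sort1*, the sortilin gene (chromosome 3, 108284082 to 108361511, plus strand), was the only member with an unadjusted p under 0.05 for *Dek* cKO against WT. It was at 198, 206 and 213 TPM in female WT, 191, 201 and 199 TPM in male WT, 179.5, 194 and 188 TPM in female cKO and 202, 174 and 177 TPM in male cKO libraries. Of the 6 *Dek* cKO libraries 4 were below the lowest WT library, and 2 WT libraries were above the highest *Dek* cKO library, male cKO 1, so that the groups overlapped. The mean was 202 ± 7.64 TPM (SD, n = 6) in WT and 186 ± 11.0 TPM (SD, n = 6) in *Dek* cKO mice. The log2 fold change was -0.12 (SE 0.04, 95% interval -0.21 to -0.02), equal to 0.92-fold, with an unadjusted p of 0.0181 and an adjusted p of 0.628 by limma. The difference therefore did not pass the threshold, which asked for both an adjusted p under 0.05 and a change of over 1.2-fold. Unadjusted p-values under 0.05 were found for 6.64% of all genes tested, and for 1.8% in the direction of *Sort1*.

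The sign of the *Sort1* difference was the same in both sexes, -0.14 on the log2 scale in females (95% interval -0.28 to 0.00) and -0.10 in males (95% interval -0.24 to 0.04), and when any single library was left out (-0.14 to -0.10). It was -0.16 (adjusted p = 0.396, limma) without the 2 libraries of conflicting sex. Within the libraries of the CMV prefix, which leaves the 3 male WT libraries as controls, it was -0.09 (unadjusted p = 0.147, adjusted p = 0.989, limma). Summed cell type markers are given beside this difference, without a test of the sums. The summed TPM of 6 oligodendrocyte markers ranged from 2281 to 4751 in WT, with a median of 4362, and from 2594 to 4278 in *Dek* cKO libraries, with a median of 3602. That of 5 markers of CA1 pyramidal cells ranged from 167 to 205 in WT and from 147 to 181 in *Dek* cKO libraries. No gene of either list is listed at 0 in all libraries, and 0 genes of either list passed the threshold. Medians were also lower in *Dek* cKO libraries for markers of CA2 and CA3, meninges, blood and cortex. They were higher for all other lists, such as dentate granule cells (119 TPM in WT and 155 TPM in *Dek* cKO libraries). Male WT 2, with the lowest oligodendrocyte sum (2281 TPM), had *Sort1* at 201 TPM. The part of any cell type in the *Sort1* values was not tested. In bulk tissue, fewer cells of a type and less RNA per cell cannot be told apart.

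*Creb1* (chromosome 1, 64532645 to 64604548, plus strand) encodes the transcription factor at the end of the route. Its level ranged from 13.6 to 16.8 TPM in WT, with a median of 15.7 TPM, and from 13.8 to 16.9 TPM in *Dek* cKO libraries, also with a median of 15.7 TPM. The genotypes thus covered the same range, and the mean was 15.5 ± 1.11 TPM (SD, n = 6) in WT and 15.5 ± 1.25 TPM (SD, n = 6) in *Dek* cKO mice. The log2 fold change was -0.01 (SE 0.07, 95% interval -0.15 to 0.14, adjusted p = 0.999 by limma). CREB is controlled mainly by phosphorylation, which these data do not measure.

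Thus 0 of the 7 genes passed the threshold for *Dek* cKO against WT, compared with 0.148% of the 18197 genes tested, or 27 genes. All 7 passed the filter on low values. Their log2 fold changes were above 0 for 3 and below 0 for 4, with a median of -0.01, while the median over all genes tested was 0.02 and 55.8% of these were above 0. None of the 7 had *Dek* cKO values wholly above or below the WT values, a state found for 0.572% and 0.104% of all genes. The interval was narrowest for *Sort1*, from 0.86-fold to 0.98-fold. For *Ntrk2*, *Ntrk3* and *Creb1* the lowest bound was 0.898-fold (*Creb1*) and the highest 1.1145-fold (*Ntrk3*). For *Bdnf* the interval reached from 0.81-fold to 1.37-fold.

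**Figure D2:**
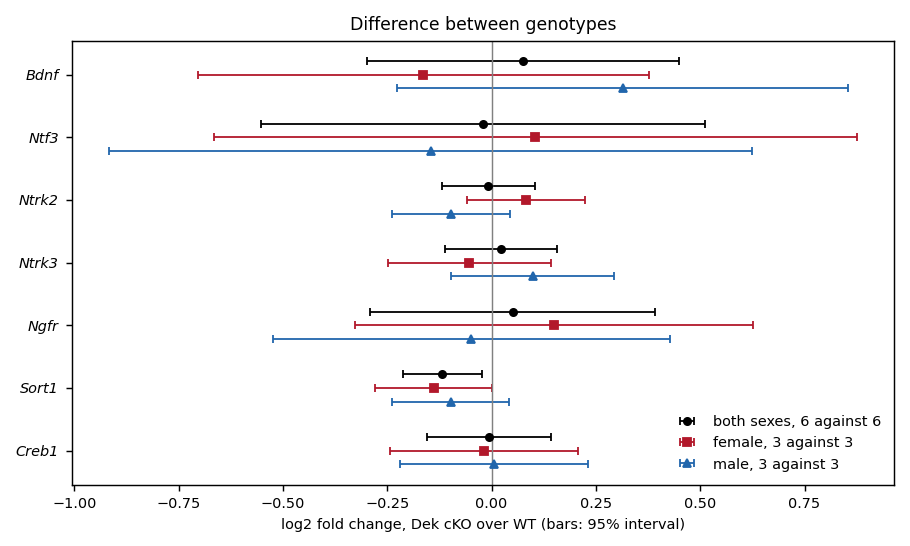
Log2 fold change of *Dek* cKO over WT (horizontal axis) for each of the 7 genes, over both sexes (6 against 6 libraries) and within females and males (3 against 3 each), with 95% intervals of limma as bars. For both sexes together, only the *Sort1* interval, -0.21 to -0.02, leaves out 0, without correction for the number of genes tested.

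Sexes were then compared. Within males, 0 of 7 genes passed the threshold (0.0165% of all genes, or 3 genes) and 0 of 7 had an unadjusted p under 0.05 (5.45% of all genes). Within females 0 of 7 passed as well (0.0165%, 3 genes), again with 0 of 7 at an unadjusted p under 0.05 (5.79%). The point estimates had opposite signs in males and females for 6 of the 7 genes, all but *Sort1*. Every 95% interval within a sex included 0, and for *Creb1* both estimates were small (0.01 in males and -0.02 in females). The share of all genes with opposite signs was not computed, so this count has no background beside it. In males *Bdnf* was at a log2 fold change of 0.31 (95% interval -0.23 to 0.85) and in females at -0.16 (-0.70 to 0.38). *Ntrk2* had the reverse order, -0.10 in males (-0.24 to 0.04) and 0.08 in females (-0.06 to 0.22). The difference itself was tested as an interaction of sex and genotype, given as male minus female change. It was 0.48 for *Bdnf* (95% interval -0.29 to 1.24, adjusted p = 0.966, limma) and -0.18 for *Ntrk2* (95% interval -0.38 to 0.02, unadjusted p = 0.0752, adjusted p = 0.966, limma). Of the 7 genes 0 passed, as did 0% of all genes by limma, of which 770 (4.23%) had an unadjusted p under 0.05. None of the 7 was among these.

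These estimates moved with single libraries. Without male cKO 3 the male log2 fold change of *Bdnf* was 0.02 and that of *Ntrk3* 0.01 in place of 0.10, while that of *Ntrk2* was -0.03. The interaction was then 0.18 for *Bdnf* and -0.11 for *Ntrk2*. Without male WT 1 the male log2 fold change of *Bdnf* was 0.14 and that of *Ntrk3* 0.01, and without male cKO 2 that of *Bdnf* was 0.52 and its interaction 0.68. The sex estimates also rest on female cKO 3 and male cKO 1, whose Y-linked genes go against their labels. Without both, *Bdnf* was at 0.40 in males and -0.35 in females, and the interaction was 0.75 for *Bdnf* and -0.23 for *Ntrk2*. Under none of these settings did a member pass the threshold. WT males and females were also compared, and 0 of the 7 genes passed, beside 0% of all genes by limma. An unadjusted p under 0.05 was found for 0 of 7 and for 3.63% of all genes. The 4 genes of the Y chromosome did not pass either, although each was higher in every male WT than in every female WT library. This fit included female cKO 3 and male cKO 1, and without both, 4 of all genes tested passed. The 0% is therefore no measure of how many genes differ between WT sexes. *Bdnf* had the largest estimate among the members, -0.22 for males relative to females (95% interval -0.76 to 0.32), and it was -0.05 without male WT 1. This comparison differs in name prefix as well as in sex.

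**Figure D3:**
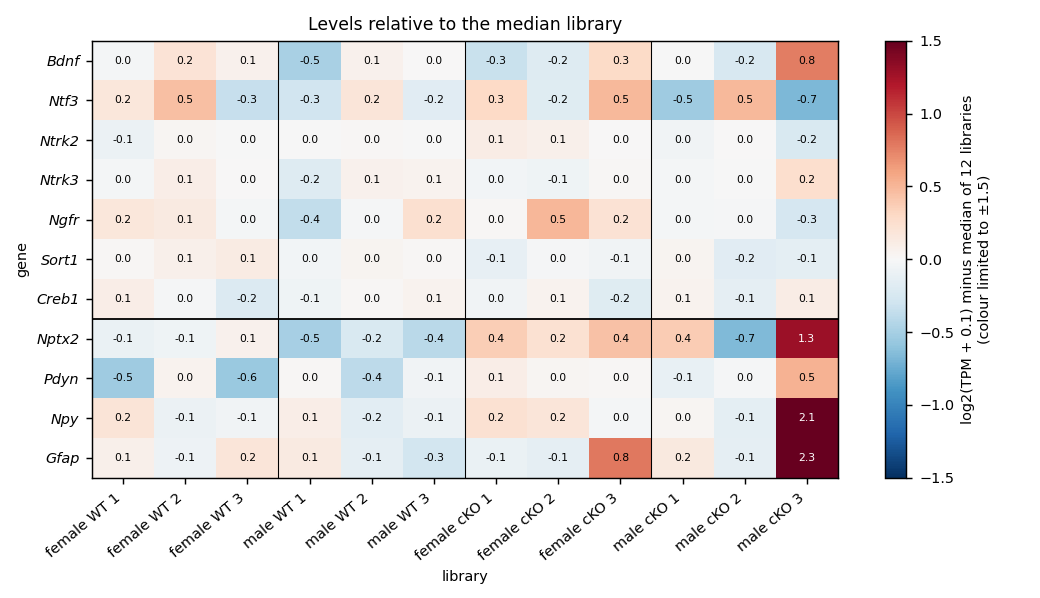
Log2(TPM + 0.1) of each gene minus its median over the 12 libraries, with rows for the 7 genes and, under the line, *Nptx2*, *Pdyn*, *Npy* and *Gfap*, and columns for libraries; the number in each cell is the value and the colour is limited to ±1.5. In male cKO 3, *Bdnf* is high and *Ntf3* low, beside high *Nptx2*, *Npy* and *Gfap*.

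Male cKO 3 was the highest of the 12 libraries for *Bdnf*, *Ntrk3* and *Creb1* and the lowest for *Ntrk2* and *Ntf3*. It was thus at an extreme for 5 of the 7 genes, for 60 of 123 genes of the wider pathway (48.8%) and for 34.9% of all genes tested, compared with 10.8% to 20.7% of all genes in the other 11 libraries. *Bdnf* was there 1.71 times the median of the other libraries, *Ntrk3* 1.19 times, *Ntrk2* 0.85 times and *Ntf3* 0.52 times. Other genes stood out further. *Npy*, a neuropeptide of hippocampal interneurons and a gene that responds to activity, was at 529 TPM, with 108 to 141 TPM in the other libraries. *Nptx2*, an activity-regulated synaptic protein, was at 44.1 TPM (others 11.3 to 24.4 TPM). *Gfap*, the intermediate filament of astrocytes, was at 1267 TPM (others 208 to 437 TPM), and the sum of 6 astrocyte markers at 1748 TPM (others 731 to 1006 TPM). This sum includes *Gfap*, which makes up most of it in male cKO 3. Without *Gfap*, the sum of the other astrocyte markers was lower in male cKO 3 than in every other library. *Plat*, the gene of tissue plasminogen activator, which starts the cutting of released BDNF precursor through plasmin, was at 45.9 TPM (others 21.5 to 29.9 TPM). *Fos* was at 25.3 TPM, close to female WT 2 at 25.7 TPM, while *Arc*, *Egr1* and *Npas4* in male cKO 3 lay within the range of the other libraries or, for *Npas4*, below it (2.42 TPM, others 2.79 to 11.4 TPM). The part of astrocyte markers in the values of the 7 genes was not tested. Nothing in the labels sets this animal apart from the other male cKO animals.

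The members were next compared with each other across the 12 libraries, on log2(TPM + 0.1). Of 21 pairs, 1 was correlated at an adjusted p under 0.05, that of *Bdnf* and *Ntrk3*. Pearson's r was 0.906 (two-sided permutation p = 0.00011, adjusted p = 0.00231 over 21 pairs) and Spearman's rho was 0.860 (permutation p = 0.00059, adjusted p = 0.0124). Libraries with more *Bdnf* thus also had more *Ntrk3*, although *Ntrk3* moved over a far smaller range. Without the 2 libraries farthest from the median of *Bdnf*, male WT 1 and male cKO 3, r was 0.655. It was 0.961 within the 6 WT libraries, 0.907 within the 6 *Dek* cKO libraries and 0.909 within the CMV prefix. Without male cKO 3 alone, r was 0.803 and the permutation p was 0.00253, with an adjusted p of 0.0531, so that the call was then lost. *Bdnf* and *Ntrk2*, ligand and receptor, had an r of -0.711 (permutation p = 0.0191, adjusted p = 0.200), and of -0.289 without male cKO 3. Spearman's rho for this pair was -0.273 (permutation p = 0.389, adjusted p = 0.973), and r was -0.428 without male WT 1 and male cKO 3. The remaining 19 pairs, among them *Ntf3* with its receptor gene *Ntrk3* and *Ngfr* with *Sort1*, had adjusted p-values of at least 0.350 for Pearson's r.

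**Figure D4:**
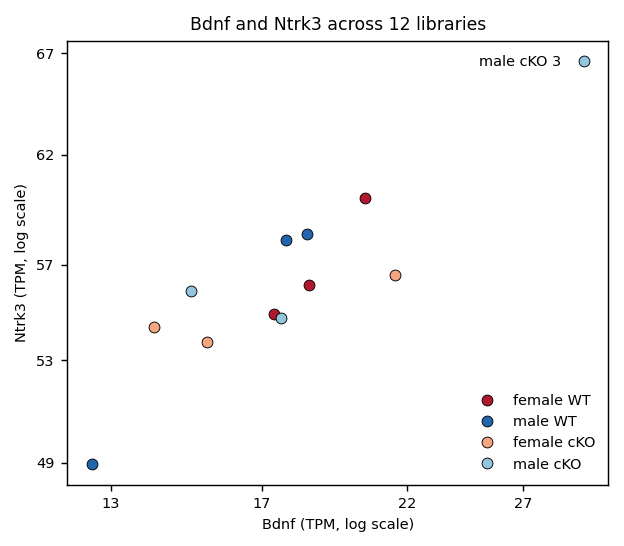
TPM of *Bdnf* (horizontal) against *Ntrk3* (vertical), both on log axes, 1 point per library, coloured by group. The points run from male WT 1 (12.6 and 48.9 TPM) to male cKO 3 (30.1 and 66.6 TPM), with WT and *Dek* cKO libraries among each other.

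For each member the genes with the most similar pattern over the 12 libraries were sought over the 14159 genes whose mean reached 1 TPM, as a description without a test, since all these values share the same libraries. *Plxna4*, a semaphorin receptor gene, had a Pearson's r of 0.940 with *Bdnf*, and *Aurka*, a mitotic kinase gene, one of 0.935. For *Ntrk2* they were *Camk2g* (r = 0.973), a calcium/calmodulin kinase subunit, and *Sncb* (r = 0.962), the β-synuclein gene. For *Ntrk3* they were *Prr7* (r = 0.916), which encodes a synaptic membrane protein, and *Mmp24* (r = 0.915), a membrane metalloproteinase gene. *Sort1* was closest to *Rnf128* (r = 0.889), an E3 ubiquitin ligase gene, and to *Wwc2* (r = 0.883), *Creb1* to *Ibtk* (r = 0.908) and *Bdp1* (r = 0.891), *Ntf3* to *Zcchc4* (r = 0.877) and *Efcab2* (r = 0.868), and *Ngfr* to *Haus5* (r = 0.908) and a gene listed as ENSMUSG00000078441 (r = 0.885). Without male cKO 3, r was 0.888 for *Plxna4* with *Bdnf*, 0.934 for *Camk2g* with *Ntrk2* and 0.866 for *Rnf128* with *Sort1*. Over all these pairs it then ranged from 0.817 (*Efcab2* with *Ntf3*) to 0.943 (*Ibtk* with *Creb1*). Spearman's rho over the 12 libraries ranged from 0.699 (*Mmp24* with *Ntrk3*) to 0.937 (*Rnf128* with *Sort1*). It was 0.713 for *Camk2g* with *Ntrk2*, far below Pearson's r.

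The wider pathway was described with 6 lists of 128 genes in all, of which 123 passed the filter on low values. *Plg*, *Mmp3*, *Mmp7* and *Creb5* were among those that did not. For *Dek* cKO against WT 0 of 123 passed the threshold by limma (0.148% of all genes), and 8 had an unadjusted p under 0.05, 5 of them higher and 3 lower in *Dek* cKO mice. That is 6.5% of the lists, beside 6.64% of all genes (4.84% higher and 1.8% lower). The count of 8 became 2 within the CMV prefix, 2 without female WT 1 and 12 with quantile normalization. The median log2 fold change was 0.01 with 67 genes above 0. No gene of the lists had groups that did not overlap.

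Among 7 other neurotrophin ligands and receptors, 0 had an unadjusted p under 0.05. *Ntf5*, which encodes NT-4, the other TrkB ligand, ranged from 0.199 to 0.481 TPM in WT and from 0.247 to 1.61 TPM in *Dek* cKO libraries, the highest being male cKO 3. The sortilin relatives *Sorl1* (74.1 TPM in WT and 77.5 TPM in *Dek* cKO mice) and *Sorcs2* (19.96 and 19.4 TPM) were the most abundant of this list. Among 12 genes of precursor processing 0 had an unadjusted p under 0.05, including *Cpe*, the carboxypeptidase that binds BDNF precursor for sorting (1775 and 1723 TPM), and the convertase gene *Pcsk2* (116 and 117 TPM). Of 39 Trk adaptors and kinases 0 did, with a median log2 fold change of 0.01. *Map2k1*, the most abundant of them, encodes the kinase MEK1 and was at 235 TPM in WT and 237 TPM in *Dek* cKO mice. Of 11 partners of p75 0 did, among them *Maged1* (337 and 325 TPM) and *Bex3* (251 and 254 TPM), whose products bind the p75 intracellular part.

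Of 29 genes of the CREB family, its coactivators and kinases, 3 (10.3%) had an unadjusted p under 0.05 by limma, beside 6.64% of all genes. *Crtc2*, a CREB coactivator, was at 24.6 ± 1.74 TPM (SD, n = 6) in WT and 27.7 ± 2.83 TPM (SD, n = 6) in *Dek* cKO mice (log2 fold change 0.16, adjusted p = 0.712, limma). *Camk4*, which encodes a nuclear kinase of CREB, was at 25.9 and 23.3 TPM (log2 fold change -0.16, adjusted p = 0.729, limma). *Creb3l2*, a membrane-bound relative known from the secretory pathway, was at 6.23 and 7.52 TPM (log2 fold change 0.26, adjusted p = 0.749, limma). The most abundant genes of this list, *Camk2a* (1526 and 1449 TPM) and *Camk2b* (653 and 644 TPM), were not among these 3.

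Of 25 activity and CREB responsive genes 5 had an unadjusted p under 0.05, and they differed in direction. *Nr4a3* and *Nr4a2*, both nuclear receptor genes induced by activity, were lower in the mean. *Nr4a3* was at 34.8, 38.9 and 36.3 TPM in female WT, 26.0, 30.7 and 28.0 TPM in male WT, 22.2, 24.5 and 27.1 TPM in female cKO and 30.9, 23.8 and 18.9 TPM in male cKO libraries. The 3 female WT libraries held the highest values and male cKO 3 the lowest, and the genotypes overlapped. Its log2 fold change was -0.40 (SE 0.12, unadjusted p = 0.00569, adjusted p = 0.454, limma). *Nr4a2* was at 65.2 ± 12.4 TPM (SD, n = 6) in WT and 44.97 ± 18.4 TPM (SD, n = 6) in *Dek* cKO mice (log2 fold change -0.62, adjusted p = 0.664, limma). *Scg2*, a secretogranin gene, *Pdyn*, the prodynorphin gene, and *Nptx2* were higher in the mean, with log2 fold changes of 0.22, 0.33 and 0.55. Without male cKO 3 the differences of mean log2 values were 0.15 for *Scg2*, 0.25 for *Pdyn* and 0.36 for *Nptx2*, and -0.33 for *Nr4a3* and -0.51 for *Nr4a2*. The median over the 25 genes was 0.01 for both sexes, 0.23 for males and -0.20 for females, beside 0.02 and 0.01 over all genes. These sex medians rest on female cKO 3 and male cKO 1, whose Y-linked genes go against their labels. Relative to the median library, the median log2 value of the 25 genes was lowest in female cKO 3, at -0.27, and was 0.15 in male cKO 1. It was 0.09 and 0.15 in female cKO 1 and 2, and -0.21 and -0.01 in male cKO 2 and 3. Female WT 2 held the highest value of 11 of the 25 genes and male cKO 3 that of 8.

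**Figure D5:**
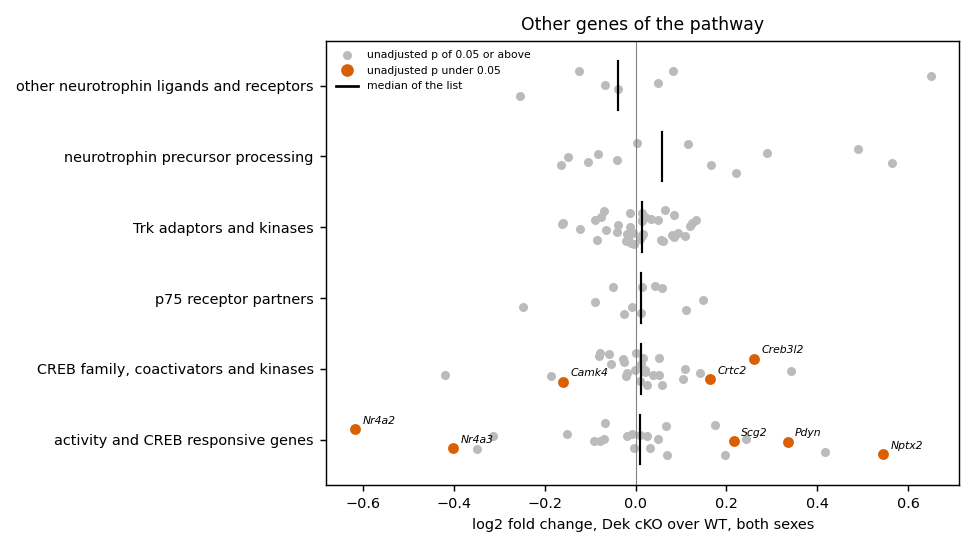
Log2 fold change of *Dek* cKO over WT (horizontal axis, both sexes) for 123 genes in 6 lists (rows, with vertical scatter for legibility only); black lines mark list medians and orange points an unadjusted p under 0.05. List medians lie between -0.04 and 0.06, and the 8 orange points are in the 2 lists around CREB.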

How the data were processed

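Hippocampal RNA of 12 mice was sequenced, and the authors deposited 1 table of TPM with 26409 genes and 1 column per library, whose columns sum to between 825750 and 845553 TPM. The submitters' processing notes name kallisto and mm10, while the methods of the study name STAR and Salmon on GRCm38, and no source used here says which made the table. TPM keeps no read counts, so the study's DESeq2 test was not repeated. The methods of the study give a planned read depth, but the table holds no reads per gene or library, and no counting error is given here. Reads of overlapping or near-identical genes may have been split. Columns were matched to samples by library name, and groups follow the labels.

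The 18197 genes whose mean reached 0.1 TPM were tested on log2(TPM + 0.1) by the two-sided limma test (version 3.58.1, R 4.3.3) with a trend in the prior variance, and the Benjamini-Hochberg adjustment ran over all of them. Adding 0.1 TPM makes fold changes of low genes smaller. The threshold was an adjusted p under 0.05 together with a change of over 1.2-fold. The 6 *Dek* cKO and 6 WT libraries were compared as 2 groups, and sexes, the interaction and WT sexes in 1 fit of 4 groups. Correlations used 100000 permutations. The steps were tested on simulated data. Positions are those of GENCODE M21. Tables were made in Python 3.11.15 (scipy 1.17.1, pandas 2.3.3).

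The 7 genes, the pathway lists and the marker lists were chosen with earlier results of these data known. Named are the 7 genes, *Dek*, pathway genes with an unadjusted p under 0.05, the 2 most abundant genes of each list and the 2 genes most like each member, apart from a few genes that are not reported here. *Ntf5*, *Plat*, *Gfap* and the immediate early genes were named after their values were seen. Marker sums were computed for neurons, dentate gyrus, CA1, CA2 and CA3, interneurons, astrocytes, oligodendrocytes, microglia, endothelium, meninges, choroid plexus, blood, thalamus and cortex. Alternatives changed 1 choice at a time: the value added before the log2 transform, the filter, rescaling, the prior variance, a replicate block, a covariate for sex, the name prefix, a fit of 1 sex alone, both libraries of conflicting sex left out, and each library left out in turn. Those for the correlations and for WT sexes were chosen after seeing the data.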

Additional observations from a re-analysis of the deposited data

Results flagged for a closer look

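Among the 6 libraries of a genotype, single values were checked for lying far from the others, with the gap to the nearest library divided by the whole range of the 6 and compared with Dixon's critical value at the 95% level. Of 54 groups (27 genes in WT and in *Dek* cKO mice) 5 exceeded it. For a single group of normal values chance gives about 1 in 20. The 54 groups share the same 12 libraries, and some of the genes were included for their unadjusted p. The count of 5 can therefore not be set against that rate. *Ntrk2* was at 129.7 TPM in female WT 1, below the other WT libraries (gap 0.700 of the range). *Ntrk3* was at 66.6 TPM in male cKO 3, above the other *Dek* cKO libraries (0.779). In the same library *Pdyn* was at 16.4 TPM (0.704) and *Npy* at 529 TPM (0.924), both above the other *Dek* cKO libraries. *Crtc2* was at 28.0 TPM in male WT 3, above the other WT libraries (0.674).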

How the results depend on the processing

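None of the 7 genes passed the threshold in any comparison under any alternative run, nor did any of the pathway genes for *Dek* cKO against WT, the comparison run for them, and the smallest adjusted p of a member was 0.37. Over all genes, 27 passed for *Dek* cKO against WT, 32 with 0.5 or 1 TPM added, 36 without a trend in the prior variance, 17 without a filter, 3 with a replicate block, 12 without both libraries of conflicting sex, 10 within the CMV prefix and 13 to 27 with single libraries left out. Of all genes 3 passed within males and 3 within females as reported, and 0 to 7 and 0 to 8 under the alternatives, with 0 for the replicate block in both. For the interaction and for WT sexes 0 passed as reported, and up to 3 and up to 5 under the alternatives. Without both libraries of conflicting sex these counts were 3 and 4. Of 749 log2 fold changes of members under the alternatives, 469 differed from the reported value, and of these 420 kept their sign and side of the threshold and 49 changed sign; the cause was not tested. *Sort1* kept its sign for *Dek* cKO against WT, where the replicate block gave -0.12 (adjusted p = 0.747, limma). Between WT and *Dek* cKO libraries of the same labelled sex and replicate number, deviations from group means were barely correlated (-0.04 to 0.04). The labels do not say whether libraries were paired, and these correlations cannot exclude it. Within the CMV prefix *Ntf3* was at 0.073. Without both libraries of conflicting sex, *Creb1* was at 0.014 over both sexes, -0.017 in males, 0.045 in females and -0.062 in the interaction, *Ntf3* at 0.00013 in males, -0.038 in females and 0.038 in the interaction, and *Sort1* at -0.023 in the interaction. In males *Creb1* was also at -0.0098 with median ratio rescaling and -0.020 with quantile normalization.

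With single libraries left out, log2 fold changes over both sexes ranged from -0.068 to 0.15 for *Bdnf*, -0.12 to 0.11 for *Ntf3*, -0.032 to 0.036 for *Ntrk2*, -0.024 to 0.042 for *Ntrk3*, -0.035 to 0.12 for *Ngfr* and -0.042 to 0.026 for *Creb1*. In males they ranged from -0.51 to 0.070 for *Ntf3*, -0.21 to 0.095 for *Ngfr* and -0.042 to 0.078 for *Creb1*. In females they ranged from -0.11 to 0.30 for *Ntf3* and -0.097 to 0.051 for *Creb1*. The interaction ranged from -0.028 to 0.081 for *Sort1* and -0.044 to 0.10 for *Creb1*. Between WT sexes the difference ranged from -0.32 to -0.050 for *Bdnf*, -0.0098 to 0.046 for *Ntrk2*, -0.095 to 0.032 for *Ntrk3*, -0.29 to 0.016 for *Ngfr* and -0.034 to 0.11 for *Creb1*. Correlated pairs numbered 1 as reported, 2 with quantile normalization (*Bdnf* with *Ntrk2* in addition, by Pearson's r) and 0 to 1 with single libraries left out. By Spearman's rho neither pair passed with quantile normalization (adjusted p = 0.131 for *Bdnf* with *Ntrk3* and 0.336 for *Bdnf* with *Ntrk2*, permutation tests).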

Other observations

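Choroid plexus markers differed widely between libraries of both genotypes, with a sum of 8 genes from 75.3 to 3067 TPM in WT and from 48.1 to 4485 TPM in *Dek* cKO libraries. Neuron markers were even, from 3369 to 3763 TPM in WT and from 3377 to 3738 TPM in *Dek* cKO libraries. Dentate granule cell markers ranged from 103 to 165 TPM in WT and from 118 to 182 TPM in *Dek* cKO libraries. The other sums, each given as the range in WT and then in *Dek* cKO libraries, were 350 to 456 and 355 to 512 TPM for CA2 and CA3, 1132 to 1165 and 1087 to 1279 TPM for interneurons, 208 to 236 and 199.9 to 252 TPM for microglia, and 198 to 218 and 163 to 213 TPM for endothelium. They were 112 to 198 and 62.9 to 290 TPM for meninges, 654 to 1438 and 751 to 1282 TPM for blood, 43.0 to 61.0 and 45.4 to 69.2 TPM for thalamus, and 106 to 126 and 86.0 to 197 TPM for cortex. No marker passed the threshold for *Dek* cKO against WT.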
